A study of Mus musculus with 24 samples.

Results

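DNA crosslink repair and the DNA damage checkpoint were followed here through 34 genes of the 23479 in the deposited table. The genes were taken by symbol from a fixed list, which was chosen with earlier results of these data known, and all 34 were found. They comprise 9 genes of the Fanconi anaemia core complex and its conjugating enzyme, the Fancd2 and Fanci pair, 7 genes of incision and excision, 10 genes of the BRCA proteins and homologous recombination, 4 checkpoint kinases, and the genes Msh6 and Rad18. Total RNA had been sequenced from myeloid-derived suppressor cells (MDSCs), immature myeloid cells that accumulate with tumours and hold back T cell responses. The cells came from mouse spleen as a monocytic fraction (M-MDSC) and a polymorphonuclear one (PMN-MDSC).

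All mice carried B16 tumours, a transplantable mouse melanoma, of more than 25 mm2 when treatment started. Wild-type mice (WT) were C57BL/6, and the mice labelled IL-6KO were of strain B6.129S2-Il6tm1Kopf/J, in which the interleukin-6 gene is targeted. Untreated mice (UT) were compared with mice lymphodepleted (LD) by cyclophosphamide and fludarabine, and spleens were taken 7 days after treatment. Each of the 8 combinations of genotype label, treatment and cell type had 3 libraries. Library names join the genotype label, the treatment, the cell type and the replicate number, as in KO_UT_M_003. Sorted cells were stated to be more than 99% pure. The sources used here do not say whether the cell types were taken from the same mice.

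An interstrand crosslink ties the strands of the double helix together and blocks both replication and transcription. In the Fanconi anaemia pathway, a core complex of FANC proteins attaches ubiquitin to FANCD2 and FANCI at the stalled fork, nucleases then cut the crosslink out of one strand, and the gap and break are closed by lesion bypass and by BRCA-dependent homologous recombination. The kinases ATM and ATR sense breaks and stalled forks and, through CHEK2 and CHEK1, hold the cell cycle. Many genes of these pathways are transcribed mainly in dividing cells. Cyclophosphamide is an alkylating prodrug whose active form crosslinks DNA, and fludarabine is a nucleoside analogue that impedes DNA synthesis.

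Total reads per library ran from 7237462 to 11193088 in M-MDSCs and from 3249647 to 9999731 in PMN-MDSCs. The shallowest were WT_LD_PMN_001 (3249647), KO_UT_PMN_001 (4874429) and WT_UT_PMN_003 (5509190), so low values are less precise in these. The other PMN-MDSC libraries had 8513785 reads or more. The targeted gene, Il6, had higher normalized read counts in KO-labelled than in WT-labelled libraries. They ran from 16.2 to 45.3 over the 6 KO-labelled M-MDSC libraries and from 64.5 to 219.7 over the 6 KO-labelled PMN-MDSC libraries. In any WT-labelled library the count was at most 7.20. The origin of the Il6 reads under the KO label was not tested. Directions between genotypes below are therefore directions between labels. The 7 monocyte markers summed to at least 45036 in each M-MDSC library and to at most 32364 in each PMN-MDSC library, and the 7 measured neutrophil markers to at most 21854 and at least 91014. Among the untreated KO-labelled M-MDSC libraries, KO_UT_M_003 stood apart, with a sum over 20 G2 and M phase genes of 11019, against 3161 and 1144, and over 6 granulocyte precursor genes of 7723, against 1296 and 236.4. KO_UT_M_003 was also the highest of its group for most of the members that rose, as their values below show.

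Lymphodepletion was compared first in WT M-MDSCs, to see how the genes stood 7 days after DNA-damaging chemotherapy. Of the 34 genes, 23 rose and 0 fell, where a call needs an adjusted p under 0.05 in limma. Their median change was 1.57 on the log2(normalized count + 1) scale, against -0.07 over all 11570 genes tested. Of all genes tested, 9.52% were called higher and 8.82% lower (1102 and 1020, against 1199 and 747 in edgeR). In 24 of the 34 genes the lymphodepleted libraries all lay above the untreated ones, and the same was true of 16.9% of all genes tested. The 34 genes were chosen with earlier results of these data known, so their counts are not independent of that choice. The rise covered all 10 recombination genes, both monoubiquitinated proteins, Msh6 and Rad18, and 4 of 9 core complex genes, 3 of 7 incision and excision genes and 2 of 4 kinases. In bulk RNA, fewer or more cells of a type and less or more RNA per cell cannot be told apart. All 34 genes passed the filter on low values, and 32 of them would have passed on the 6 untreated M-MDSC libraries alone.

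**Figure D1:**
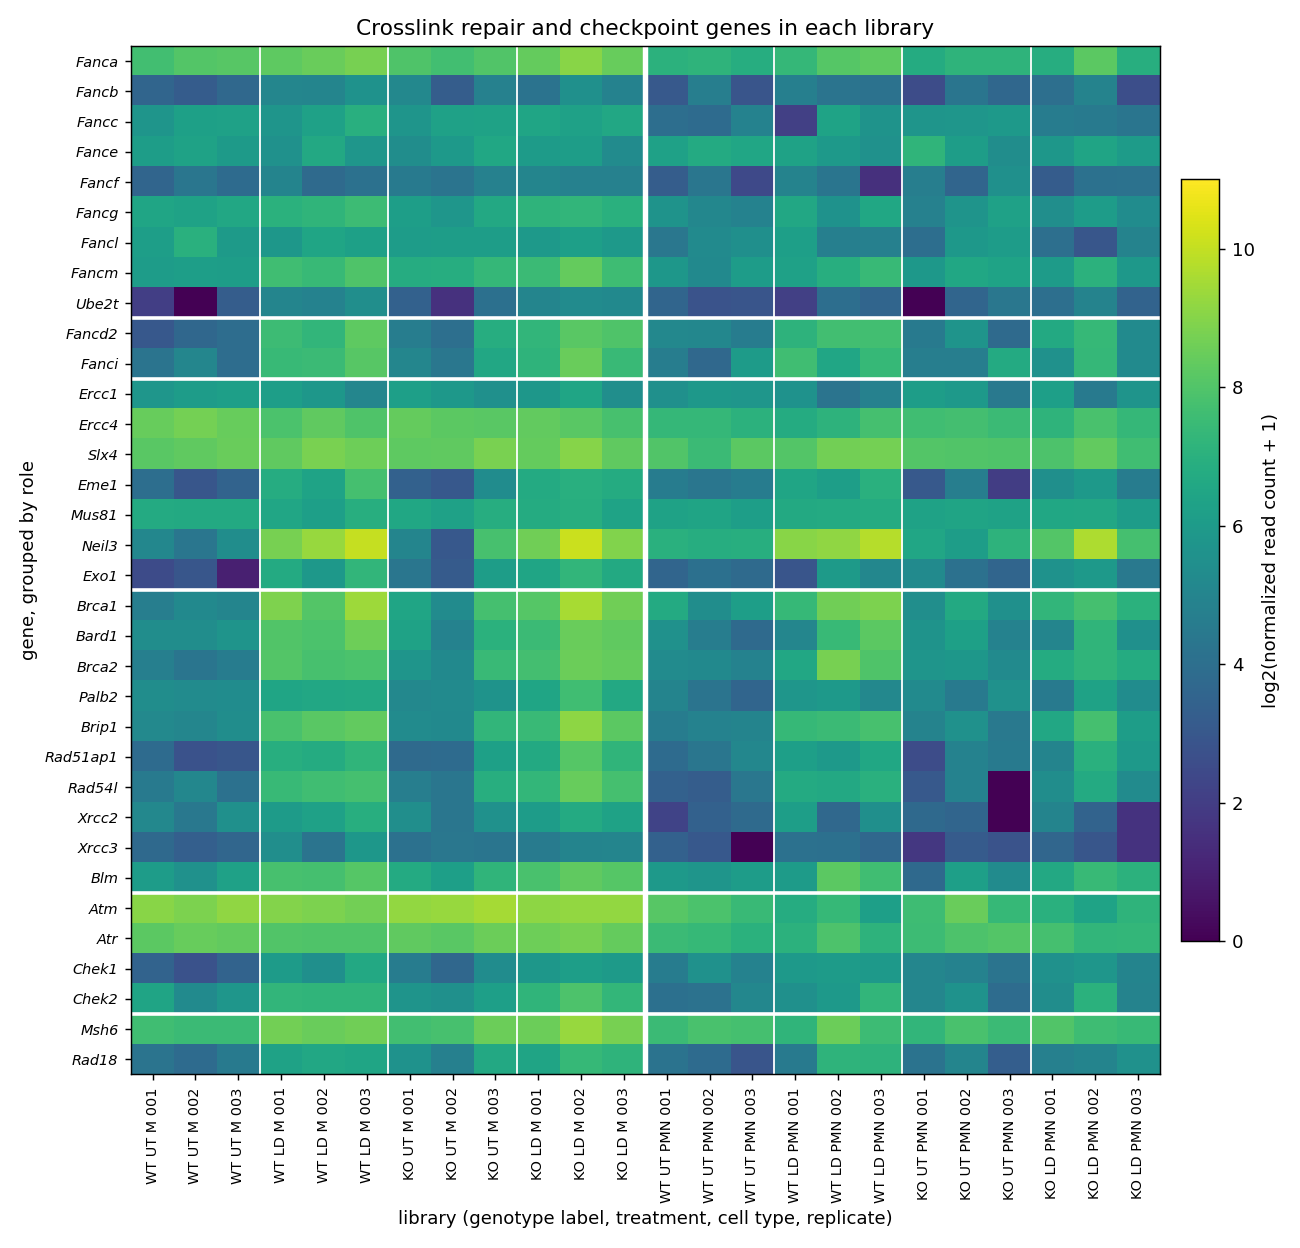
Colour gives log2(normalized read count + 1) of each of the 34 genes (rows, grouped by role, white lines between roles) in each of the 24 libraries (columns, white lines between groups and a thick line between M-MDSCs and PMN-MDSCs). Each recombination gene and the Fancd2 and Fanci pair are darker in untreated than in lymphodepleted WT M-MDSCs. Ercc4, Slx4 and Atr are light in all M-MDSC libraries, and Atm is lighter in M-MDSCs than in PMN-MDSCs.

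The promoters of the genes that moved together were read next, because many replication and repair genes carry sites of the E2F family, transcription factors of the G1 to S transition. RefSeq windows (GRCm38.p6) of 300 bases, from 250 before to 50 after the start site, were found for 31 of the 34 genes. Fancd2, Exo1 and Xrcc2 had no entry. Both strands were searched for the E2F-type letters TTTGGCGC, TTTCCCGC and TTTGCCGC, for TTTGAA (the core of the cell cycle homology region) and for CCAAT, none of which contains another. An E2F-type match was found in 5 of the 20 genes with a window that were called in WT M-MDSCs (25.0%). It was found in 0 of the 11 genes not called, and in 1.99% of all 32851 windows of the same length. A gene was counted if any of its windows matched (Rad54l and Rad18 had more than a single window), whereas the share of all windows counts each window. All 5 matches were TTTCCCGC, at -168 from the start site in Brca2, -209 in Bard1, -152 in Chek2, 15 in Msh6 and -52 in Fancg. CCAAT was in 12 of these 20 genes (60.0%), in 7 of these 11 (63.6%) and in 37.4% of all windows. TTTGAA was in the windows of Eme1 and Bard1, in 0 of the 11 not called and in 17.9% of all windows. These are exact matches of letters and not measured sites, and the counts depend on the letters chosen. Near matches were not counted, such as tttggcgg in Chek1 (called) and gcgggaag in Atm (not called). The 5 windows with an E2F-type match are shown with that of Atm, the gene of highest mean count among those not called, so that they can be read side by side. Each is written 5′ to 3′ on the gene's own strand, with matches of any searched motif on either strand in capitals (GCGGGAAA is TTTCCCGC on the other strand, ATTGG is CCAAT on the other strand).
Brca2 (chr5:150522371-150522670, plus strand): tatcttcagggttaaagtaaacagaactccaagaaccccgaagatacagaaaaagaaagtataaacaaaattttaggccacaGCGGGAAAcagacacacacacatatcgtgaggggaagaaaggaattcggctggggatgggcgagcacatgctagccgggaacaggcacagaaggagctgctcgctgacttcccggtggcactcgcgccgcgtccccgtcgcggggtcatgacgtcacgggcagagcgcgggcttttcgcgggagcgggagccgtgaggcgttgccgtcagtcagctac
Bard1 (chr1:71102923-71103222, minus strand): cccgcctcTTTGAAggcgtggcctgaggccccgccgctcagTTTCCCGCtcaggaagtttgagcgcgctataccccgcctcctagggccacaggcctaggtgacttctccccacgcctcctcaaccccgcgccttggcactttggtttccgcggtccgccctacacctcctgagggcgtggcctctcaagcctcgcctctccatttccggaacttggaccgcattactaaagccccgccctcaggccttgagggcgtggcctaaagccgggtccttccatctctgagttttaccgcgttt
Chek2 (chr5:110839733-110840032, plus strand): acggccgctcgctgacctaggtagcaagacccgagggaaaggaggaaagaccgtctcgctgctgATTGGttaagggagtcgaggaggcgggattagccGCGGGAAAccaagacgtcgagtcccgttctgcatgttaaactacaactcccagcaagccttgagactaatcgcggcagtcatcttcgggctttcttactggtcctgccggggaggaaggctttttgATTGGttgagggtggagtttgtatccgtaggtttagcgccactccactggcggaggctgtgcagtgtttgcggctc
Msh6 (chr17:87974800-87975099, plus strand): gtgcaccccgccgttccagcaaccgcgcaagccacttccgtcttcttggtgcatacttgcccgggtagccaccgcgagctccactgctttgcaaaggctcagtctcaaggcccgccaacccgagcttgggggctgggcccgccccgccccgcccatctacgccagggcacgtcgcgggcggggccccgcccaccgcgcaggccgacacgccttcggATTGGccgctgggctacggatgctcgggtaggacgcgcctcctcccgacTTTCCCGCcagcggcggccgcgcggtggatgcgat
Fancg (chr4:43010252-43010551, minus strand): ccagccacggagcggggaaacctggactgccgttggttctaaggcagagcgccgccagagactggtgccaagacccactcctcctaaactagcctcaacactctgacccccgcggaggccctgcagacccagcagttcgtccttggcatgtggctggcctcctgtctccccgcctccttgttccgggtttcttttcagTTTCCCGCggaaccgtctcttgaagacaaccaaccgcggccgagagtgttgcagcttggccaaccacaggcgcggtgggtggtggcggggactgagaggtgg
Atm (chr9:53536622-53536921, minus strand): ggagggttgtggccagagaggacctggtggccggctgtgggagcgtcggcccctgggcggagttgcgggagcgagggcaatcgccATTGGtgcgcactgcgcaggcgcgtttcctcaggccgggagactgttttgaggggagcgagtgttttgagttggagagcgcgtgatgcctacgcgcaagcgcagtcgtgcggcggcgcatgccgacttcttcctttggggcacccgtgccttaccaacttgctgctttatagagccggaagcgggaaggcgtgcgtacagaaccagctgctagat

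In the core complex, which acts as the ubiquitin ligase of the pathway, 4 of 9 genes rose in WT M-MDSCs. Fancm (GRCm38 chromosome 12, 65074110 to 65131842) encodes the translocase that anchors the complex to DNA. Its normalized count was 66.0, 69.9 and 68.9 in untreated and 199, 168 and 252 in lymphodepleted WT M-MDSCs. The groups did not overlap, and the log2 change, here and below with its standard error, was 1.56 ± 0.24, adjusted p 0.000609. Ube2t (chromosome 1, 134962565 to 134974180) encodes the conjugating enzyme that supplies ubiquitin to the ligase. It had 3.14, 0 and 8.49 in untreated libraries, which are 4, 0 and 9 reads, and 31.1, 28.6 and 42.2 after lymphodepletion. All 3 treated libraries lay above all untreated ones (3.34 ± 0.75, adjusted p 0.00735), and the size of the change rests on those few reads. Fancg (chromosome 4, 43002337 to 43010567), a scaffold subunit of the complex, went from 86.4, 80.8 and 94.4 to 130.3, 147 and 188 (0.81 ± 0.23, adjusted p 0.0238). Fancb rose by 1.70 (adjusted p 0.0286), and leaving out a library ended its call in 5 of 6 cases and that of Fancg in 4 of 6.

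The other 5 core complex genes were not called by limma. Fanca, a large structural subunit, was higher in every lymphodepleted library at 311, 361 and 433 against 206, 261 and 279 (0.56 ± 0.20, adjusted p 0.0629), and DESeq2 called it (0.61, adjusted p 0.0353). Fancl, the ligase subunit itself, had 69.9, 125 and 62.3 in untreated and 55.5, 86.7 and 74.1 in lymphodepleted libraries (-0.20 ± 0.27, adjusted p 0.641). Fancc had 52.6, 74.9 and 78.3 against 51.6, 78.1 and 123. Fancc and Fance link the complex to its substrate, and both overlapped between treatments. Fance had 68.3, 80.8 and 62.3 against 46.0, 99.0 and 54.3, and its change and that of Fancf were -0.15 and 0.38. Fancl shares 13.7% and Fanca 6.30% of its exon bases with a gene on the opposite strand, and whether the counting used strand is not stated.

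Both substrates of the ligase rose. Fancd2 (chromosome 6, 113531640 to 113597020) had 7.07, 11.7 and 14.2 normalized counts in untreated WT M-MDSCs and 183, 152 and 310.3 after lymphodepletion. This was a 17.8-fold rise on the log2(normalized count + 1) scale (4.16 ± 0.57, adjusted p 0.000246). Fanci (chromosome 7, 79392312 to 79450266), its partner in the clamp that closes around DNA, had 18.1, 31.6 and 14.2 and then 171, 180.3 and 278 (3.28 ± 0.50, adjusted p 0.000501). No treated library of either gene came near the untreated range. Fanci shares 11.5% of its exon bases with Polg on the opposite strand.

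Among the genes that cut and trim DNA, 3 of 7 rose and 4 were not called. Neil3 (chromosome 8, 53586867 to 53639065) encodes a DNA glycosylase that can unhook some crosslinks without incision of the backbone. Its normalized count was 33.0, 19.1 and 40.6 in untreated and 429, 629 and 1034 in lymphodepleted WT M-MDSCs (4.42 ± 0.84, adjusted p 0.00237). Eme1 (chromosome 11, 94644972 to 94653836), the partner of the MUS81 nuclease, had 14.9, 6.66 and 10.4 and 111, 82.0 and 216 (3.50 ± 0.53, adjusted p 0.000478). Exo1 (chromosome 1, 175880768 to 175911396), an exonuclease of end resection and mismatch repair, had 4.71, 6.66 and 0.944, or 6, 8 and 1 reads, and 104, 57.2 and 148 (4.46 ± 0.67, adjusted p 0.00044). Eme1 shares part of its exon bases with Lrrc59 on the opposite strand. Before treatment Exo1 and Eme1 were nearly silent in WT M-MDSCs.

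The structure-specific nucleases themselves did not pass the test. Slx4 (chromosome 16, 3979105 to 4003829), the scaffold on which they assemble, had 290.5, 314 and 353 in untreated and 314, 441 and 378 in lymphodepleted libraries, which overlapped (0.23 ± 0.20, adjusted p 0.443). Ercc4 (chromosome 16, 13109366 to 13152009), the catalytic subunit XPF, was lower in every lymphodepleted library, at 235, 318 and 248 against 349, 416 and 346, and its change of -0.48 missed the threshold (adjusted p 0.0606). Its partner Ercc1 changed by -0.36 (adjusted p 0.491). Mus81, the partner of Eme1, had 104, 101 and 102 against 89.3, 72.7 and 117 (-0.16 ± 0.23, adjusted p 0.665). Of the partners in this nuclease, Eme1 was thus called and Mus81 not, and the difference between their changes was not tested.

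All 10 recombination genes rose, by 1.21 to 3.78. Brca2 (chromosome 5, 150522297 to 150570147), a central mediator of homologous recombination, had 25.9, 18.3 and 23.6 in untreated and 266, 224 and 239 in lymphodepleted WT M-MDSCs. Its change of 3.38 ± 0.43, adjusted p 0.00018 had the smallest adjusted p among the 34 genes. Brca1 (chromosome 11, 101488761 to 101551955), which acts with BARD1 as a ubiquitin ligase and steers breaks towards recombination, went from 25.1, 36.6 and 31.1 to 468, 262 and 660.3 (3.78 ± 0.52, adjusted p 0.000247). The lymphodepleted libraries differed among themselves by more than the untreated ones, but none approached the untreated range. Blm (chromosome 7, 80454993 to 80535148), a helicase that dissolves recombination intermediates, rose from 66.7, 45.8 and 78.3 to 222, 216 and 272 (1.90 ± 0.26, adjusted p 0.000266). Rad51ap1 and Rad54l, whose products promote strand exchange, rose by 3.77 and 3.04, the helicase Brip1 by 2.93 and Bard1 by 2.66. Palb2, which bridges BRCA1 and BRCA2, rose by 1.21, and Xrcc2 and Xrcc3, which act in recombination, by 1.39 and 1.58. The calls of Xrcc2 and Xrcc3 were each lost in 3 of the 6 fits that leave out a library.

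Of the checkpoint kinases, both effectors rose and neither sensor passed the test. Chek1 (chromosome 9, 36708482 to 36726658), the effector kinase below ATR, had 10.2, 5.83 and 10.4 in untreated and 64.3, 44.1 and 97.4 in lymphodepleted WT M-MDSCs (2.79 ± 0.43, adjusted p 0.000535). Chek2 (chromosome 5, 110839800 to 110874140), the effector below ATM, had 84.0, 37.5 and 53.8 and then 149.8, 146 and 147 (1.40 ± 0.29, adjusted p 0.00465). Both effectors were above the untreated range in every treated library. The sensor Atm (chromosome 9, 53437122 to 53536828) had 532, 459.6 and 583 in untreated and 503, 451 and 397 in lymphodepleted libraries (-0.22 ± 0.13, adjusted p 0.266). The other sensor, Atr (chromosome 9, 95857597 to 95953217), had 298, 349 and 329 and 257, 252 and 252, and its treated libraries all lay below the untreated ones (-0.35 ± 0.14, adjusted p 0.0854). Msh6 (chromosome 17, 87975050 to 87990892), which recognises base mismatches, rose from 196, 177 and 182 to 409, 362 and 396 (1.07 ± 0.22, adjusted p 0.005). Rad18 (chromosome 6, 112619851 to 112696691), the ligase that marks PCNA for lesion bypass, rose from 18.1, 13.3 and 21.7 to 79.9, 94.4 and 87.9 (2.26 ± 0.40, adjusted p 0.00156).

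**Figure D2:**
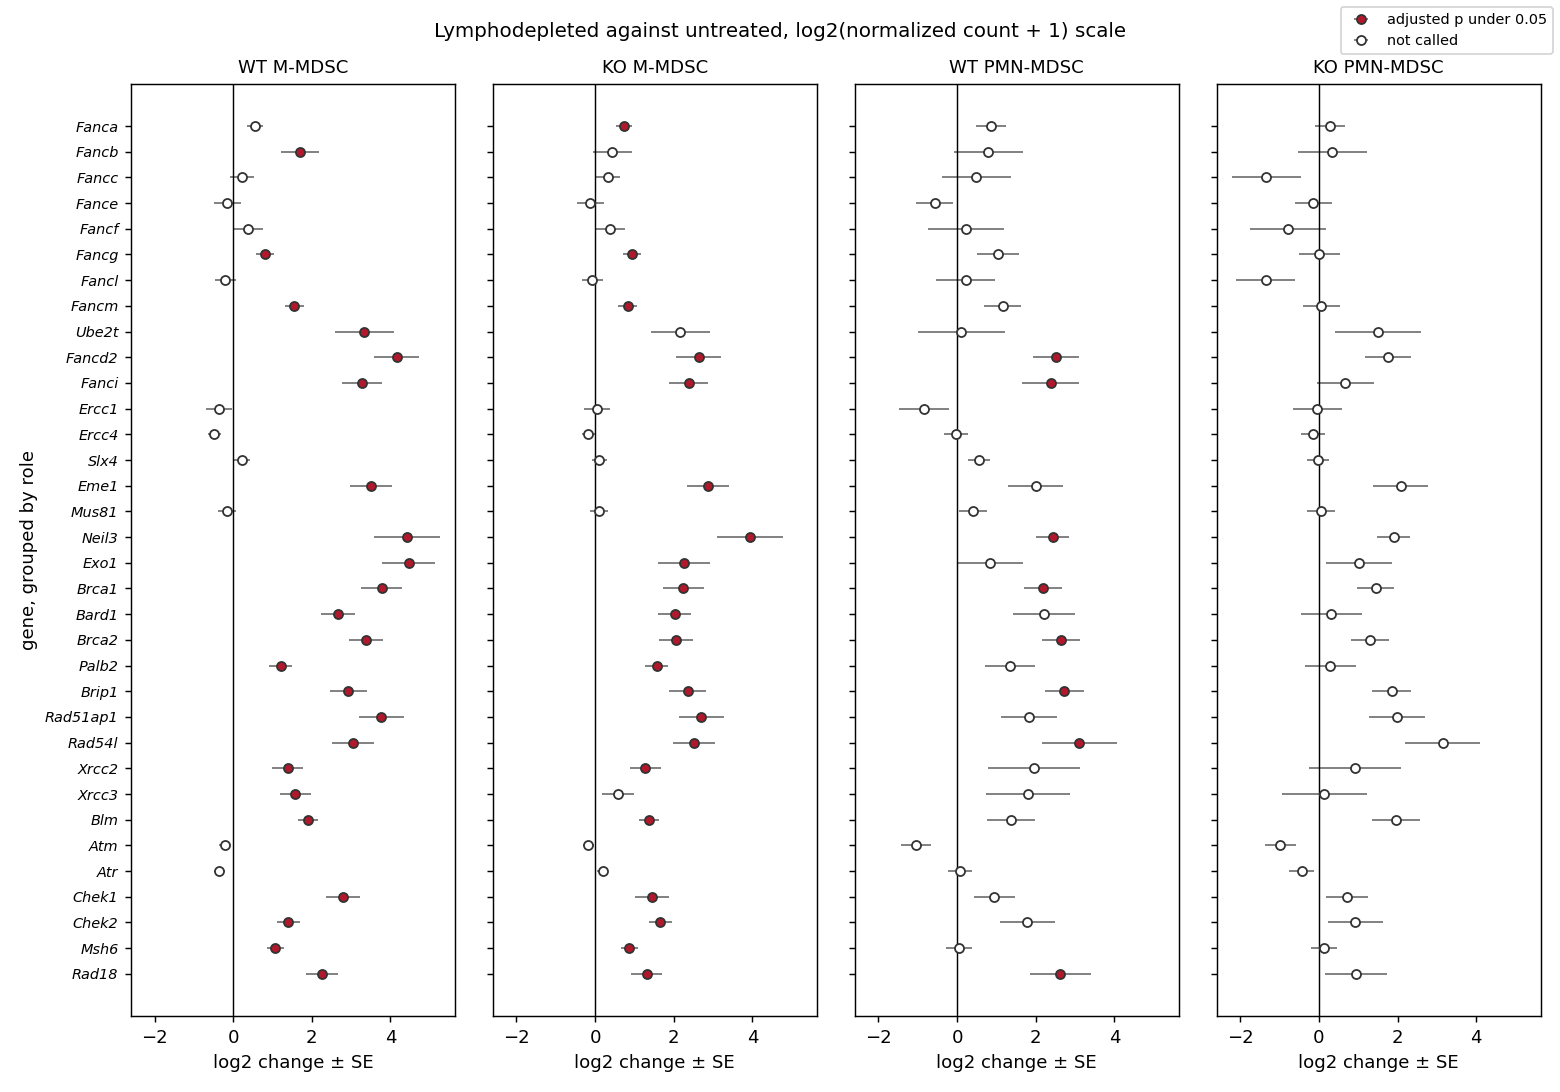
Points give the log2 change between lymphodepleted and untreated libraries and lines its standard error, for each of the 34 genes (rows) in the 4 combinations of genotype label and cell type (panels, 3 libraries against 3), with filled points for an adjusted p under 0.05. Filled points number 23 in WT M-MDSCs, 21 in KO-labelled M-MDSCs, 8 in WT PMN-MDSCs and 0 in KO-labelled PMN-MDSCs, and all of them lie to the right of 0.

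In KO-labelled M-MDSCs, 21 of the 34 genes rose after lymphodepletion and 0 fell. Of all genes tested, 6.11% were called higher and 5.52% lower. The median change was 1.29 for the 34 genes and -0.02 for all genes. In 22 of the 34 genes every treated library was above every untreated one, as it was for 13.7% of all genes tested. Called in both genotypes were 20 genes, which is 87.0% of the WT list and 95.2% of the KO list. By limma Fancb, Ube2t and Xrcc3 were called in WT and not in KO, and Fanca in KO and not in WT, and none of them was called in the test of the difference given below. Ube2t was called in KO-labelled cells as well by DESeq2 (1.97, adjusted p 0.0192) and in limma with a pseudocount of 5, quantile normalization or the replicate block, and Fanca in WT cells by DESeq2. The remaining 10 genes were called in neither genotype: Atm, Atr, Ercc1, Ercc4, Slx4, Mus81, Fancc, Fance, Fancf and Fancl.

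The untreated KO-labelled libraries were further apart than the WT ones. Neil3 had 31.4, 7.26 and 219 in untreated and 387, 1125 and 488 in lymphodepleted KO-labelled M-MDSCs (3.94 ± 0.84, adjusted p 0.00847). Fancd2 had 24.2, 15.2 and 114 and then 151, 292 and 253 (2.64 ± 0.57, adjusted p 0.00899). Brca1 had 87.6, 39.0 and 216 and then 276, 753 and 387 (2.24 ± 0.52, adjusted p 0.0127). KO_UT_M_003 was the highest untreated library for each of them, and still below the lowest treated one. Chek2 rose from 50.3, 45.6 and 73.4 to 147, 239 and 156 and had the smallest adjusted p of the 34 genes in this comparison (1.66 ± 0.29, adjusted p 0.00362). Chek1 had 23.5, 11.9 and 40.1 and 55.1, 71.3 and 63.4 (1.44 ± 0.43, adjusted p 0.0425). Exo1 had 18.9, 7.92 and 68.0 and 86.4, 149.9 and 101 (2.26 ± 0.67, adjusted p 0.0413). Not called were Atm, with 599, 637 and 734 and 561, 589.8 and 587 (-0.17 ± 0.13, adjusted p 0.434), and Slx4, with 308, 322 and 434 and 333, 506 and 321 (0.11 ± 0.20, adjusted p 0.766). Without KO_UT_M_003 the count was 22, but it was 10 without KO_UT_M_001, 12 without KO_UT_M_002 and 12 without KO_LD_M_002. In a fit of all 24 libraries together it was 8, and the share of all genes called in that fit is not given here. The calls of Exo1 and Chek1 were each kept in 1 of the 6 fits that leave out a library, and edgeR called neither.

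The genotype labels were compared next, within each treatment. In untreated M-MDSCs limma called 0 of 34, with 10 at an unadjusted p under 0.05 (2563 of all 11570 genes), while edgeR called Brca2 and Rad18, and DESeq2 called 8, all higher in KO-labelled cells. The 8 were Brca1, Brca2, Rad51ap1, Rad18, Fancd2, Fancm, Chek1 and Exo1. Of all genes tested, 4.03% were called in either direction (259 higher and 207 lower, against 361 and 138 in edgeR and 714 and 357 in DESeq2). The nearest were Brca2, with 52.9, 36.3 and 176 in KO-labelled against 25.9, 18.3 and 23.6 in WT cells (1.60 ± 0.43, adjusted p 0.0534), and Rad18, with 47.0, 26.4 and 99.9 against 18.1, 13.3 and 21.7 (1.47 ± 0.40, adjusted p 0.0553). In both genes every KO-labelled library was above every WT library. Without KO_UT_M_002, the library with the lowest G2 and M phase sum of its group, limma called 8. Cell cycle genes moved with them: 18 of 20 S phase genes were higher in KO-labelled cells, 5 of them called (median 1.0), and so were 20 of 20 G2 and M phase genes, 2 of them called (median 1.5). Of 6 T cell markers 4 were called higher, of 7 NK cell markers 7, and of 6 granulocyte precursor genes 3. The S phase genes summed to 2336 to 6027 in untreated KO-labelled and 1764 to 1914 in untreated WT M-MDSCs. The summed level of 7 NK cell markers was 6402 to 9281 in untreated KO-labelled and 1580 to 1793 in untreated WT M-MDSCs, and that of 6 granulocyte precursor genes 236.4 to 7723 and 47.1 to 134.1. Their part in the difference was not tested.

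After lymphodepletion limma again called 0 of 34 genes in M-MDSCs, with 2 at an unadjusted p under 0.05 (1081 of all 11570 genes). Of the 34, edgeR called 0 and DESeq2 called Atr. Of all genes tested, limma called 0.207% (18 higher and 6 lower), edgeR 17 higher and 6 lower, and DESeq2 120 higher and 65 lower. The gene nearest the threshold was Atr, with 374, 423 and 336 in KO-labelled and 257, 252 and 252 in WT cells (0.57 ± 0.14, adjusted p 0.105). An interaction term tested whether the labels differed in their response. It was called for 0 of 34 genes by limma, edgeR and DESeq2. Of all genes, limma called 0.00864%, edgeR 0 higher and 2 lower, and DESeq2 21 higher and 50 lower. At an unadjusted p under 0.05 in limma were 4 of the 34 genes and 1413 of all 11570 genes. The median interaction of the 34 genes was -0.51, where a negative value is a smaller rise in KO-labelled cells, against 0.00 for all genes. It was -0.28 after quantile normalization and -0.71 in edgeR. In the same test the median was -0.96 for S phase, -1.73 for G2 and M phase and -3.56 for granulocyte precursor genes, with 0 called in each list, and their part in the members' values was not tested. For Exo1 it was -2.20 ± 0.94, adjusted p 0.384, and for Brca2 -1.32 ± 0.61, adjusted p 0.406.

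**Figure D3:**
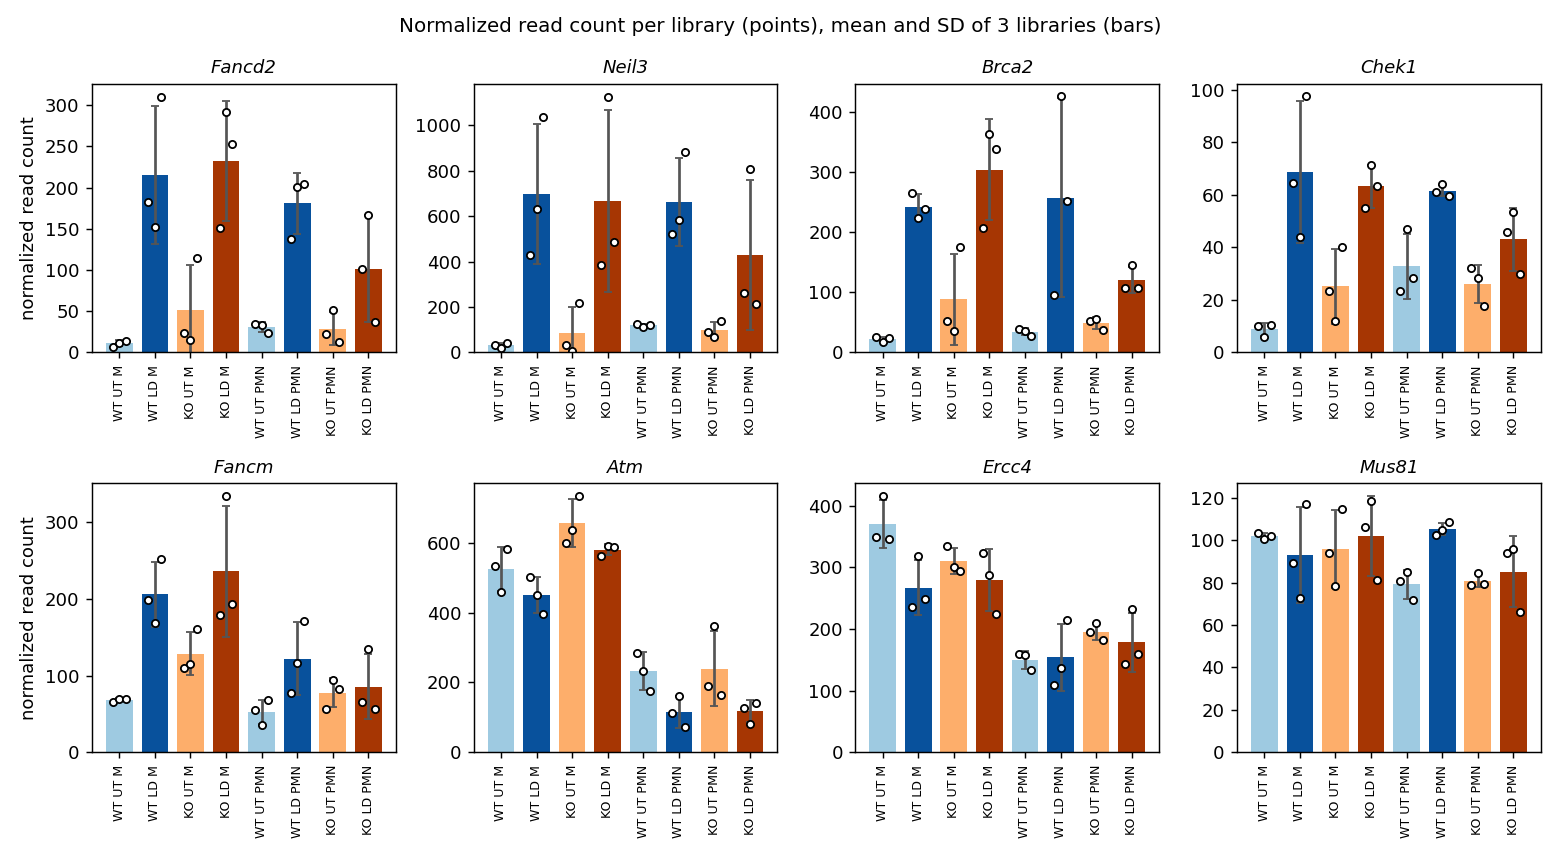
Points are the normalized read counts of 8 of the genes by library, bars the mean of 3 libraries and lines the SD, with every vertical axis starting at 0. Fancd2, Neil3, Brca2 and Chek1 are higher in lymphodepleted than in untreated WT M-MDSCs with no overlap, the group means of Atm and Ercc4 are higher in M-MDSCs than in PMN-MDSCs under the same label and treatment, and Mus81 lies between 66.1 and 118.3 in all 24 libraries.

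In WT PMN-MDSCs, 8 of the 34 genes rose after lymphodepletion and 0 fell: Brca1, Brca2, Brip1, Rad54l, Fancd2, Fanci, Neil3 and Rad18. All 8 were also called in both M-MDSC comparisons. The calls of Brca2, Brip1 and Neil3 held in each of the 6 fits that leave out a library, while that of Rad54l was lost in 6 of 6, that of Rad18 in 5, those of Fanci and Fancd2 in 4 each and that of Brca1 in 2. Of the 12971 genes tested, 4.14% were called higher and 6.73% lower, and the median change was 1.10 for the 34 genes and -0.20 for all genes. That split of all genes depended on the scaling, with 537 higher and 873 lower in limma, 469 and 356 after quantile normalization, 629 and 391 in edgeR and 1037 and 971 in DESeq2. The median of all genes moved by 0.15 to 0.20 under these scalings. The 34 genes kept a positive median under each of them.

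Neil3 was already transcribed in untreated PMN-MDSCs. It had 125, 114 and 119.7 in untreated and 523, 582 and 884 in lymphodepleted WT libraries (2.43 ± 0.42, adjusted p 0.00781). Brip1 had 23.2, 28.8 and 30.5 and 164, 179 and 225 (2.73 ± 0.49, adjusted p 0.00781). Fancd2 had 34.2, 33.6 and 23.9 and 138, 200.3 and 204 (2.52 ± 0.59, adjusted p 0.0199). These genes had no overlap between treatments. Brca2 had 39.1, 36.0 and 28.3 and 96.3, 427 and 252 (2.64 ± 0.49, adjusted p 0.00867) and its treated libraries were far apart, with WT_LD_PMN_001 the lowest. Msh6 and Exo1, called in M-MDSCs, overlapped between treatments here, with changes of 0.05 and 0.84. Atm was lower in every treated library, at 112, 162 and 72.6 against 285, 233 and 176, without passing the test (-1.04 ± 0.39, adjusted p 0.0889). Single libraries mattered: the count was 4, 3 and 5 without WT_UT_PMN_001, WT_UT_PMN_002 and WT_UT_PMN_003, and 3 without WT_LD_PMN_003. It was 5 without the filter, 14 in DESeq2 and 18 in a fit of all 24 libraries, where Atm was the 1 gene called lower. The shares of all genes called without the filter and in the fit of all 24 libraries are not given here. A move in these counts is thus not read as particular to the 34 genes.

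In KO-labelled PMN-MDSCs limma called 0 of the 34 genes, with 10 at an unadjusted p under 0.05 (1321 of all 12971 genes). By edgeR 0 were called, by DESeq2 Neil3 and Brip1, and by a fit of all 24 libraries Brip1, Rad54l and Blm. The background in limma was low as well, since 0.0% of all genes tested were called higher and 0.224% lower. Of all genes tested, DESeq2 called 83 higher and 163 lower, and the share in the fit of all 24 libraries is not given here. Neil3 had 89.0, 69.5 and 137 in untreated and 263, 809 and 213 in lymphodepleted libraries (1.90 ± 0.42, adjusted p 0.0916). Rad54l had 7.42, 28.2 and 0 and 40.8, 104 and 38.2 (3.15 ± 0.95, adjusted p 0.218). Both were higher in every treated library. KO_LD_PMN_002 was the highest treated library for Neil3 and Rad54l, and its G2 and M phase sum was 25876, against 6629 and 6382 in the other two of its group.

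Between genotype labels in PMN-MDSCs, limma, edgeR and DESeq2 each called 0 of the 34 genes, untreated or lymphodepleted, and limma had 0 at an unadjusted p under 0.05 in either. Of all genes tested, limma called 0.00771% untreated and 0.0154% lymphodepleted. Untreated, edgeR called 0 of all genes and DESeq2 7 higher and 3 lower. Lymphodepleted, edgeR called 1 higher and 2 lower and DESeq2 24 higher and 22 lower. After lymphodepletion 26 of the 34 genes had a difference below 0, meaning lower in KO-labelled cells, with a median of -0.53 against 0.04 for all genes. Beside them, 19 of 20 S phase (median -1.20), 20 of 20 G2 and M phase (-0.94) and 6 of 6 granulocyte precursor genes (-3.39) were below 0, with 0 called in each list. Their part in the members' values was not tested. The interaction of label and lymphodepletion was called for 0 of 34 genes by each tool, with 0 at an unadjusted p under 0.05 in limma. Of all genes, limma called 0.0%, edgeR 0 higher and 1 lower, and DESeq2 7 higher and 22 lower.

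Cell types were compared in a fit of all 24 libraries, with 13457 genes tested. In untreated WT mice, 8 of the 34 genes were higher and 2 lower in M-MDSCs than in PMN-MDSCs, against 22.2% and 28.3% of all genes. The number called higher is near the share of all genes and is not read as particular to the 34. Atm was 525 ± 62.1 (SD, n = 3) in M-MDSCs and 231 ± 54.4 in PMN-MDSCs, and the difference was 1.20 ± 0.28, adjusted p 0.00131. Atr and Ercc4 were higher in M-MDSCs too (1.05 ± 0.23, adjusted p 0.000579, and 1.30 ± 0.23, adjusted p 8.54e-05), as were Fanca, Fancc, Fancg, Fancl and Chek2. The lower genes were Neil3 (-1.98 ± 0.72, adjusted p 0.0258) and Chek1 (-1.76 ± 0.47, adjusted p 0.00378), at 8.8 ± 2.58 in M-MDSCs and 32.8 ± 12.4 in PMN-MDSCs. In untreated WT mice the sensor kinases and the effector Chek1 thus had opposite orders between the cell types. The other effector, Chek2, had the order of the sensors, with means of 58.4 in M-MDSCs and 21.8 in PMN-MDSCs. In untreated KO-labelled mice Chek1 was not called, with means of 25.17 in M-MDSCs and 26.05 in PMN-MDSCs. Without WT_UT_M_003 6 genes were called. Of the 10 calls in untreated WT mice, 5 held in every fit that leaves out a library, among them Atm, Atr and Chek1. Those of Chek2, Neil3 and Fancc were each kept in 2 of 6 such fits, that of Fancl in 1 and that of Fanca in 4. The call of Neil3 was also lost in edgeR.

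In untreated KO-labelled mice 6 of the 34 genes were higher in M-MDSCs (Fanca, Ercc4, Rad54l, Xrcc2, Blm and Atm) and 0 lower, against 20.3% and 23.6% of all genes. In lymphodepleted WT mice 6 were higher (Fancg, Ercc4, Exo1, Atm, Atr and Msh6) and 0 lower, against 19.4% and 19.9%. In both comparisons the number called higher is near the share of all genes. In lymphodepleted KO-labelled mice 21 were higher and 0 lower, against 23.8% and 23.6%. The median difference of the 34 genes was 0.40 and 0.56 in untreated WT and KO-labelled mice and 0.76 and 1.40 in lymphodepleted ones, against -0.08, 0.05, 0.07 and 0.05 for all genes. Atm and Ercc4 were called in all 4 comparisons, with differences of 1.20, 1.54, 2.02 and 2.34 for Atm and of 1.30, 0.66, 0.84 and 0.66 for Ercc4, in the same order. In the lymphodepleted KO-labelled cells Atm had 561, 589.8 and 587 in M-MDSCs and 126, 81.5 and 142 in PMN-MDSCs, an order shared by every library. Of these, the calls of Atm held in every alternative run in all 4 comparisons. That of Ercc4 was lost in 4 of 6 fits that leave out a library in untreated and in lymphodepleted KO-labelled mice, in both lymphodepleted comparisons when the compared groups were fitted alone, and after quantile normalization in lymphodepleted KO-labelled mice. That of Exo1 in lymphodepleted WT mice was kept in 1 of 9 other settings and lost in both edgeR and DESeq2.

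Fitting the compared groups alone called 3 genes in untreated KO-labelled and 1 in lymphodepleted WT mice, and quantile normalization 3 in lymphodepleted WT and 11 in lymphodepleted KO-labelled mice. Single libraries moved these counts as well: to 3 in untreated KO-labelled mice without any one of KO_UT_M_001, KO_UT_M_003, KO_UT_PMN_001 or KO_UT_PMN_003, to 2 in lymphodepleted WT mice without WT_LD_M_001, WT_LD_M_003 or WT_LD_PMN_001, and to 10 in lymphodepleted KO-labelled mice without KO_LD_M_002, KO_LD_PMN_001 or KO_LD_PMN_003. Cell cycle and precursor genes differed between the cell types too. In lymphodepleted KO-labelled mice 16 of 20 S phase (median 2.21), 4 of 20 G2 and M phase (1.39) and 5 of 6 granulocyte precursor genes (6.75) were called higher in M-MDSCs, and in lymphodepleted WT mice 5 (0.86), 0 (0.49) and 4 (3.13). In untreated KO-labelled mice 6, 1 and 5 were higher and 1, 1 and 0 lower, and in untreated WT mice 0, 0 and 3 were higher and 2, 3 and 1 lower. Their part in the members' differences was not tested. Whether lymphodepletion acted differently in the cell types was tested as an interaction, which limma, edgeR and DESeq2 called for 0 of 34 genes in either genotype. In limma 5 genes in WT and 0 in KO-labelled mice were at an unadjusted p under 0.05 (1995 and 1031 of all 13457 genes), and 0.788% and 0.0966% of all genes were called. The nearest was Exo1 in WT mice (3.62 ± 1.09, adjusted p 0.119). That value rests on few reads, with 6, 8 and 1 in untreated WT M-MDSCs and 2 in WT_LD_PMN_001.

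Levels of different genes were compared per kilobase of annotated exon. In untreated WT M-MDSCs Ercc4 was highest of the 34 with a mean of 55.0 normalized counts per kilobase, followed by Atm at 50.8, and Exo1 was lowest at 0.487. By its mean, Neil3 led in all 4 lymphodepleted groups, at 126 in WT and 119.9 in KO-labelled M-MDSCs and at 119 and 77.1 in PMN-MDSCs. Msh6 was next in each of these 4 groups, and in lymphodepleted WT M-MDSCs, at 89.5, it lay within the spread of the Neil3 libraries. In both KO-labelled groups the lead rested on 1 library: Msh6 was above Neil3 in the other 2, and the means were 78.7 for Neil3 and 92.0 for Msh6 without KO_LD_M_002 and 42.8 and 48.4 without KO_LD_PMN_002. In untreated PMN-MDSCs Msh6 was highest, at 48.0 in WT and 43.0 in KO-labelled cells.

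The wider pathways were read from 42 other crosslink repair genes and 24 other checkpoint genes. In WT M-MDSCs 9.52% of all genes tested were called higher and 8.82% lower. Of the 41 other crosslink repair genes tested there, 12 rose and 0 fell, with a median of 0.22. Those of smallest adjusted p were Polh, the lesion bypass polymerase eta (2.21 ± 0.23, adjusted p 9.5e-05), Uhrf1, a hemimethylated-DNA binding protein (4.12 ± 0.56, adjusted p 0.000236), and Apitd1, now named Cenps, a partner of FANCM (3.75 ± 0.53, adjusted p 0.000314). Apitd1 had a mean of 1.17 normalized counts in untreated and 28.0 in lymphodepleted libraries, so the size of its change rests on few reads. Of the other checkpoint genes 11 rose and 1 fell, with a median of 0.62. The rises were led by H2afx, the histone variant phosphorylated around breaks (3.64 ± 0.43, adjusted p 0.000144), Clspn, the adaptor through which ATR activates CHEK1 (3.62 ± 0.49, adjusted p 0.000245), and Wee1, a kinase that restrains mitotic entry (4.33 ± 0.70, adjusted p 0.000764). Trp53bp1, which protects break ends from resection, fell (-0.55 ± 0.17, adjusted p 0.0324).

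In KO-labelled M-MDSCs 6.11% of all genes tested were called higher and 5.52% lower. There 11 of 41 other crosslink repair genes and 10 of 24 other checkpoint genes rose and 0 fell. The smallest adjusted p were those of Gen1, a nuclease of recombination junctions (2.19 ± 0.38, adjusted p 0.00319), Polh (1.27 ± 0.23, adjusted p 0.00444) and Rad54b (2.91 ± 0.54, adjusted p 0.00464), and of Clspn (2.88 ± 0.49, adjusted p 0.00312), H2afx (2.14 ± 0.43, adjusted p 0.00648) and Rpa2, a subunit of the single-strand binding protein RPA (1.10 ± 0.23, adjusted p 0.00792). In WT PMN-MDSCs 4.14% of all genes tested were called higher and 6.73% lower. There 3 of 42 and 6 of 24 rose, and the recombination gene Rad51d fell (-0.91 ± 0.28, adjusted p 0.0495). Among those that rose were Uhrf1 (2.73), Rbbp8 (0.97), Clspn (1.79), Timeless (1.34) and H2afx (3.57). In KO-labelled PMN-MDSCs limma called 0 of either list, and of all genes tested 0.0% higher and 0.224% lower. Between labels in untreated M-MDSCs, Apitd1 (2.35) and Rpa1 (0.77) were higher and the nuclease gene Dna2 lower (-0.67) in KO-labelled cells. The means of Apitd1 were 11.4 in KO-labelled and 1.17 in WT cells, so the size of that difference rests on few reads.

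The summed level of the 34 genes was set beside that of cell cycle and precursor genes. The 34 genes summed to 2904 to 3158 in untreated and 5978 to 7883 in lymphodepleted WT M-MDSCs, to 2980 to 5067 and 5729 to 9830 in KO-labelled M-MDSCs, to 2036 to 2180 and 3380 to 5378 in WT PMN-MDSCs, and to 2080 to 2696 and 2357 to 4470 in KO-labelled PMN-MDSCs. These sums overlapped between treatments in KO-labelled PMN-MDSCs and in no other group. In WT M-MDSCs all 20 S phase genes and all 20 G2 and M phase genes rose, with median changes of 2.93 and 4.71. The G2 and M phase genes summed to 1161 to 1280 in untreated and 22665 to 37077 in lymphodepleted WT M-MDSCs. All 6 granulocyte precursor genes rose as well (median 6.12), from a sum of 47.1 to 134.1 to one of 4306 to 15306, and 3 of 7 neutrophil genes rose. The name of the precursor list (Mpo, Elane, Prtn3, Ctsg, Ms4a3 and Cebpe) is a label only. Its sum was lower in lymphodepleted WT PMN-MDSCs, at 629 to 2545, and which cells carried these transcripts was not tested. Of the markers of other cells in WT M-MDSCs, 3 of 3 erythroid, 4 of 4 eosinophil and basophil, 4 of 5 stem and progenitor and 2 of 6 red pulp macrophage genes rose, and 7 of 7 NK cell, 5 of 7 B cell, 1 of 6 T cell and 1 of 7 monocyte genes fell. In KO-labelled M-MDSCs 15 S phase and 20 G2 and M phase genes were called higher (medians 1.71 and 2.94). Of the 6 granulocyte precursor genes 0 were called there, but 6 were above 0 and at an unadjusted p under 0.05 (median 2.61), with a sum of 236.4 to 7723 before and 5144 to 13334 after treatment. In the same cells 7 of 7 NK cell, 7 of 7 B cell and 4 of 6 T cell markers fell, and 2 of 7 neutrophil, 3 of 5 stem and progenitor and 1 of 3 erythroid genes rose.

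In WT PMN-MDSCs 8 S phase, 18 G2 and M phase and 4 granulocyte precursor genes were called higher (medians 1.94, 3.12 and 4.09). There 3 of 6 stem and progenitor genes rose, 6 of 7 B cell, 2 of 6 T cell, 1 of 7 NK cell, 1 of 2 eosinophil and basophil and 1 of 7 monocyte markers fell, and 2 neutrophil genes rose and 2 fell. In KO-labelled PMN-MDSCs 0 of the S phase, G2 and M phase and precursor genes were called, with medians of 0.37, 1.94 and 1.10. Of the 20 G2 and M phase genes there, 20 were above 0, 17 at an unadjusted p under 0.05 and 13 without overlap between treatments, and 2 of 7 B cell markers fell. Whether the 34 genes would have changed at a constant share of dividing or precursor cells was not tested.

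**Figure D4:**
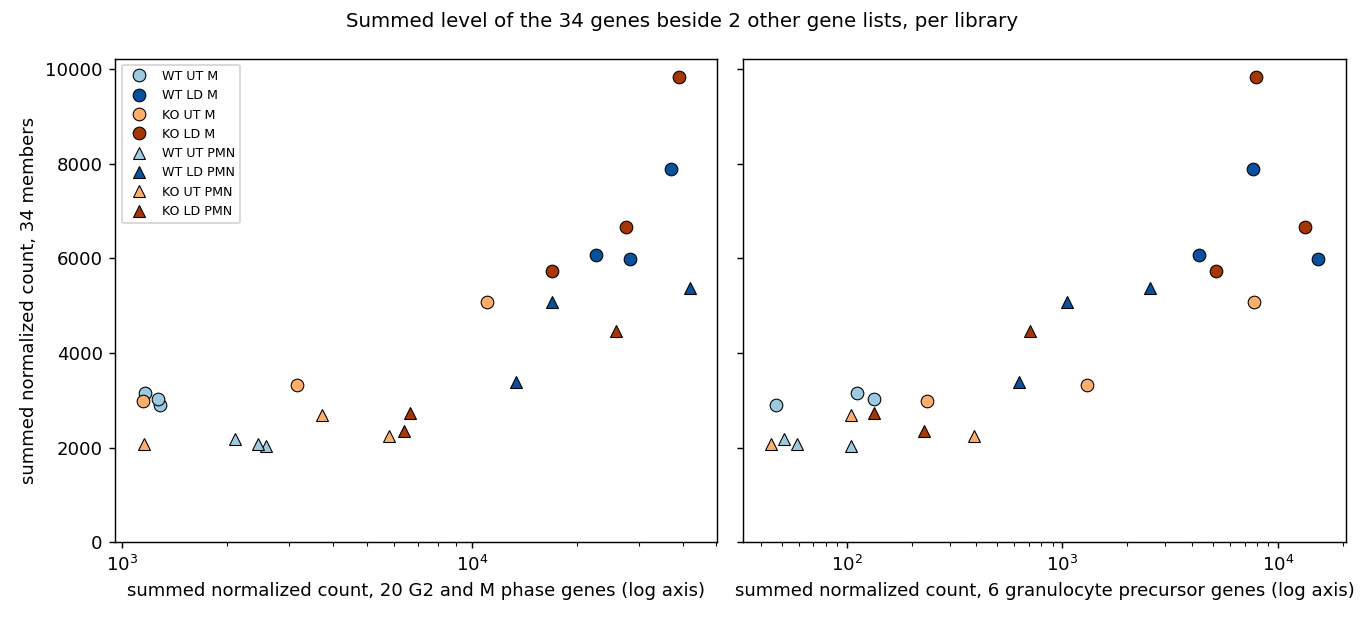
Summed normalized count of the 34 genes (vertical axis, from 0) against that of 20 G2 and M phase genes (left) and of 6 granulocyte precursor genes (right), both on log axes, with 1 point for each of the 24 libraries (circles for M-MDSCs, triangles for PMN-MDSCs, colours for genotype label and treatment). KO_UT_M_003, at 5067, lies apart from the other 2 untreated KO-labelled M-MDSC libraries at 2980 and 3317, and it also has the highest G2 and M phase sum of its group, at 11019.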

How the data were processed

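Total RNA of sorted splenic M-MDSCs and PMN-MDSCs was extracted with Qiagen RNeasy and 100 ng went into NuGen Ovation libraries with probe-based depletion of rRNA, per the labels' protocols. The values the authors deposited are a signal, read counts divided by 1 factor in each library. The tools were STAR 2.5.3a for alignment, HTSeq 0.6.1 for counting and DESeq2, with build mm10, as listed per the submitters' processing notes. Strand setting, annotation and DESeq2 version are not given in the sources. Whole reads for edgeR and DESeq2 were recovered from the step of each library, of which 100% of nonzero values were multiples (within 0.001 reads). Dividing by 1 factor per library leaves differences in composition in the values.

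The members and gene lists were chosen with earlier results of these data known. Limma 3.58.1 (R 4.3.3, trend in the prior variance) was fitted to log2(normalized count + 1) with 1 mean per group, on the 12 libraries of a cell type or on all 24 to compare cell types. A gene was tested where 3 or more of the fitted libraries reached 10 normalized counts. Two-sided p-values were Benjamini-Hochberg adjusted over all genes tested, and calls needed an adjusted p under 0.05. The fold scale understates changes of low genes. P-values measure the spread between libraries, which the design text describes as mice. The procedure was tested on simulated data. Alternatives were pseudocounts of 0.5 and 5, quantile normalization, no filter, DESeq2 1.42.0, edgeR 4.0.16 (quasi-likelihood, TMM), the replicate number as a block, other libraries in the fit, and each library left out. Removing the 3 shallowest PMN-MDSC libraries together was chosen after seeing the data.

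Values per library are given for up to 3 members of each role with the smallest adjusted p in WT M-MDSCs and for the uncalled member of highest mean, and others were added after their values were seen. From the wider pathways, the 3 of smallest adjusted p and those called against the majority are named. A gene of these lists that the rule names is not reported here. Exon lengths and positions came from GENCODE vM21 and RefSeq (GRCm38), and promoter windows from RefSeq.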

Additional observations from a re-analysis of the deposited data

How the results depend on the processing

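Every member called in a lymphodepletion comparison stayed above 0 in all alternatives run, and 19 of 23 calls in WT M-MDSCs, 10 of 21 in KO-labelled M-MDSCs and 3 of 8 in WT PMN-MDSCs held in every fit that leaves out a library. In every other setting run, 17 of 23, 8 of 21 and 4 of 8 held. In WT M-MDSCs the fit of all 24 libraries called 17, losing Chek2, Palb2, Fancb, Fancg, Xrcc2 and Xrcc3. With 1 library left out, the number called ran from 19 to 24 in WT M-MDSCs, from 10 to 22 in KO-labelled M-MDSCs, from 3 to 8 in WT PMN-MDSCs, and from 0 to 8 between labels in untreated M-MDSCs. Between cell types it ran from 6 to 8 in untreated WT, 3 to 7 in untreated KO-labelled, 2 to 8 in lymphodepleted WT and 10 to 24 in lymphodepleted KO-labelled mice. A fit of all 24 libraries called 8 in lymphodepleted KO-labelled M-MDSCs, 18 in WT PMN-MDSCs and 3 in KO-labelled PMN-MDSCs. DESeq2 called 8 and 1 between labels in untreated and lymphodepleted M-MDSCs, 14 in WT PMN-MDSCs and 2 in KO-labelled PMN-MDSCs, and edgeR called 2 between labels in untreated M-MDSCs. Without the filter 5 were called in WT PMN-MDSCs. For fits without the filter, of all 24 libraries or with 1 library left out, the share of all genes called is not given here. Between cell types, fitting the compared groups alone called 3 in untreated KO-labelled and 1 in lymphodepleted WT mice, and quantile normalization 3 in lymphodepleted WT and 11 in lymphodepleted KO-labelled mice. The causes were not tested. In no comparison did same-numbered libraries deviate together with a correlation over 0.1 in all 3 pairs (the nearest was M-MDSCs against PMN-MDSCs in lymphodepleted KO-labelled mice, at 0.134, 0.221 and 0.032), so the numbers were not taken as pairs. With the replicate block the counts were 23, 20, 8 and 0 for lymphodepletion in WT and KO-labelled M-MDSCs and WT and KO-labelled PMN-MDSCs, and 9, 6, 6 and 21 between cell types in untreated WT, untreated KO-labelled, lymphodepleted WT and lymphodepleted KO-labelled mice, where it ended the calls of Fancl (untreated WT) and Exo1 (lymphodepleted WT) and added Fancc (lymphodepleted WT). Without the 3 shallowest PMN-MDSC libraries 7 were called in WT PMN-MDSCs. With 1 library left out, the changes of some uncalled genes ran across 0: in WT M-MDSCs Fancc (-0.09 to 0.53), Fance (-0.48 to 0.07), Fancl (-0.39 to 0.10) and Mus81 (-0.34 to 0.00), and in KO-labelled M-MDSCs Fancb (-0.14 to 0.81), Fance (-0.40 to 0.18), Ercc1 (-0.23 to 0.29), Slx4 (-0.10 to 0.26) and Mus81 (-0.04 to 0.24). Depth limits WT_LD_PMN_001, KO_UT_PMN_001 and WT_UT_PMN_003 most, and the shallowest of them, WT_LD_PMN_001, had 3249647 reads.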
